A study of Rattus norvegicus with 6 samples.

Results

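The genes described here make or sense the gaseous messengers hydrogen sulfide, carbon monoxide and nitric oxide. They were the 10 genes Cth, Cbs, Mpst, Hmox1, Hmox2, Nos1, Nos2, Nos3, Gucy1a1 and Gucy1b1, chosen by symbol, out of 14506 genes measured, and each was read by 1 probe set. Hydrogen sulfide is made by cystathionine gamma-lyase (Cth), cystathionine beta-synthase (Cbs) and 3-mercaptopyruvate sulfurtransferase (Mpst). Carbon monoxide is released when a haem oxygenase (Hmox1 or Hmox2) opens the haem ring, and nitric oxide is made from arginine by the nitric oxide synthases (Nos1, Nos2 and Nos3). Nitric oxide acts on soluble guanylate cyclase, a haem protein built from an alpha and a beta chain (Gucy1a1 and Gucy1b1), which makes cyclic GMP. In the carotid body, a small sensor of arterial oxygen in the neck, carbon monoxide and nitric oxide are known as inhibitory messengers and hydrogen sulfide as an excitatory one.

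The RNA came from neurospheres, floating cell clusters grown for 10 days from dispersed carotid body cells of adult rats, and was read on 6 Affymetrix arrays. The 3 arrays labelled undifferentiated held spheres kept in normoxia with 4 mitogens (EGF, FGF, ET-1 and IGF-1), and the 3 labelled differentiated held spheres kept without mitogens at 3% oxygen, so mitogens and oxygen changed together. The series asked which pathways separate neuron-rich spheres from spheres rich in undifferentiated cells. No genotype, strain or age beyond adult was given, and the labels are silent on whether the 3 arrays of each kind stem from different cultures or rats, so p-values reflect just the scatter among these samples, which could be technical. Values are on a log2 scale, with array medians from 5.05 to 5.13 and upper quartiles from 6.83 to 6.92. They carry no detection call, so how far a dim gene stood over background is not known here.

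Glomus cell markers went against the labels. All 13 measured markers of glomus cells, the oxygen-sensing catecholamine cells of the carotid body, fell in the arrays labelled differentiated, with a median log2 change of -2.43. Th, tyrosine hydroxylase, which starts catecholamine synthesis, read 13.76, 13.59 and 13.91 in the arrays labelled undifferentiated and 10.73, 11.32 and 10.65 in those labelled differentiated. The background potassium channel Kcnk3 and the cytochrome oxidase subunit Cox4i2 fell by 2.24 and 3.50. Of 6 neuronal markers 1 rose, the neurofilament Nefl by 1.21, and the nuclear protein Rbfox3 differed by 0.15 (limma adjusted p = 0.488). The other marker lists were divided, and 29.5% of all genes were called. Of 14 macrophage markers 2 rose and 2 fell, of 11 endothelial markers 2 and 2, of 12 smooth muscle and pericyte markers 4 and 3, and of 8 glial markers 3 and 1. Those that rose were Cd14 and Tyrobp, Eng and Erg, Acta2, Tagln, Pdgfrb and Cspg4, and S100b, Foxd3 and Egr2, and those that fell were Cd74 and Cd163, Cldn5 and Egfl7, Rgs5, Kcnj8 and Abcc9, and Mbp. Among them the contractile Acta2 rose by 0.97, the endothelial factor Erg by 0.96, the glial factor Egr2 by 0.61 and Cd14 by 0.68, and the pericyte gene Rgs5 fell by 2.28, the tight junction gene Cldn5 fell by 2.31, the myelin gene Mbp fell by 1.97 and Cd74 fell by 2.64. Rises and falls below refer to the arrays labelled differentiated. The cause of these marker changes was not tested, nor was whether the group labels were exchanged or the cultures differed from their description. An exchange of labels would turn every direction given. Fewer cells of a type cannot be told apart from less RNA per cell.

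Of the 10 gasotransmitter genes, 2 rose, 2 fell and 6 did not pass a limma adjusted p of 0.05. This is 40% called, against 29.5% of all genes (14.7% higher and 14.9% lower). The inducible haem oxygenase Hmox1 fell 8.91-fold, while the other haem oxygenase, Hmox2, differed by 0.07 on the log2 scale. The sulfide enzymes Cth and Mpst rose 1.54-fold and 1.31-fold, and the guanylate cyclase chain Gucy1a1 fell 1.61-fold. None of the 3 nitric oxide synthases passed in limma, and none had an unadjusted p under 0.05 (the lowest was 0.0515, for Nos2). The groups did not overlap for 5 of the 10 genes, against 42.3% of all genes, and the median log2 change of the 10 was 0.11 against 0.06 over all genes. The counts rested on single arrays: 2 genes fell whichever array was left out, but the number that rose was 0 without undifferentiated replicate 2 or differentiated replicate 3, 1 without undifferentiated replicate 1 or 3 or differentiated replicate 2, and 1 with median centring.

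**Figure D1:**
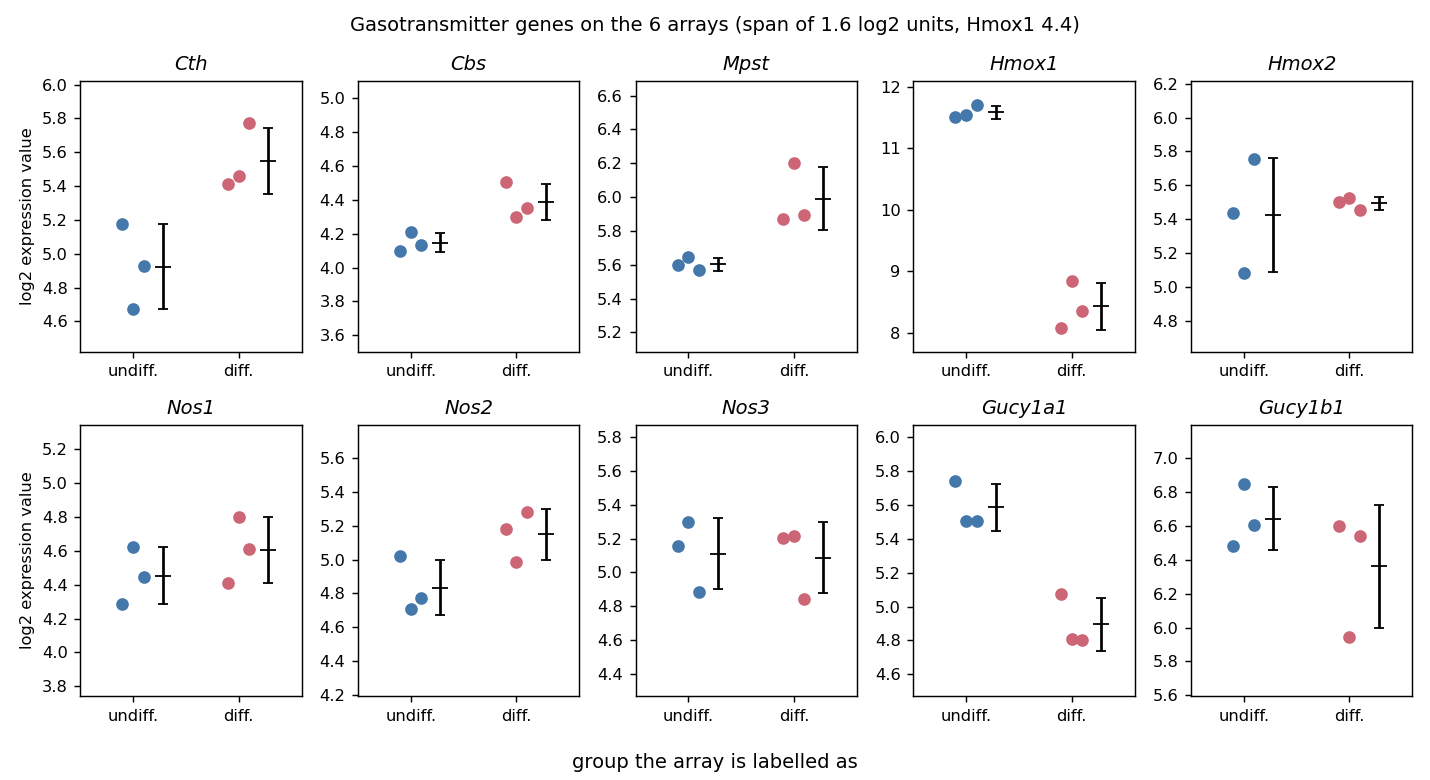
Log2 expression values of the 10 gasotransmitter genes, with 1 point per array for the 3 arrays labelled undifferentiated (blue) and the 3 labelled differentiated (red), beside the mean and SD of each group in black. Each panel has its own axis; Hmox1 lies between 11.50 and 11.71 in the first group and between 8.07 and 8.84 in the second, and the groups also stand apart for Cth, Cbs, Mpst and Gucy1a1.

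Among the sulfide-making enzymes, Cth, which makes hydrogen sulfide from cysteine and homocysteine, read 5.18, 4.67 and 4.93 in the arrays labelled undifferentiated and 5.41, 5.46 and 5.77 in those labelled differentiated. All 3 arrays labelled differentiated lay above all 3 others. The change was 0.62 ± 0.16 (SE, limma adjusted p = 0.013). It was lost without undifferentiated replicate 2, which had the lowest value (0.50, limma adjusted p = 0.0527), and without differentiated replicate 3, which had the highest (0.51, limma adjusted p = 0.0572). Mpst, which works in mitochondria and cytosol with cysteine-derived 3-mercaptopyruvate, read 5.60, 5.65 and 5.57 against 5.87, 6.20 and 5.90. The arrays labelled undifferentiated lay close together, with an SD of 0.04, and differentiated replicate 2 was the highest of the 6. The change was 0.39 ± 0.13 (SE, limma adjusted p = 0.0409). This call stood near the threshold: it was lost with median centring (limma adjusted p = 0.0547), without undifferentiated replicates 1 (0.101), 2 (0.0718) and 3 (0.115), and without differentiated replicates 2 (0.144) and 3 (0.0545). Cbs, the first enzyme of the route from homocysteine to cysteine, read 4.10, 4.21 and 4.14 against 4.51, 4.30 and 4.35. Its groups did not overlap either, but the change of 0.24 did not pass (95% interval -0.06 to 0.54, limma adjusted p = 0.228). Its mean lay below the 40th percentile of all probe sets, at 4.44, so it was among the dim genes. The changes of Cth and Cbs differed by 0.38 (exact permutation p = 0.2, adjusted p = 0.467 over 7 pairs of genes) and those of Cth and Mpst by 0.24 (exact permutation p = 0.5, adjusted p = 0.583). An exact test of 3 arrays against 3 cannot give a p below 0.1, so these pair tests could not pass.

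The promoters of Cth and Mpst, the genes that rose, are shown for a motif both hold. Each is the 250 bases before the gene start in RefSeq's GRCr8 assembly, 5′ to 3′ on the gene's strand, at chr2:249661067-249661316, minus strand and chr7:111835943-111836192, plus strand. Capitals mark matches to ACGTG, the core of the hypoxia response element, or to TGACNNNGC, the antioxidant response element, searched on both strands.
Cth: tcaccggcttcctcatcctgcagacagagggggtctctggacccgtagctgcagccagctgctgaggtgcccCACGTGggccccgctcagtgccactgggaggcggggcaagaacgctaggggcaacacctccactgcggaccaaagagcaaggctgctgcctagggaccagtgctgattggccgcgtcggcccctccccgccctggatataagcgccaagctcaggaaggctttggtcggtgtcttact
Mpst: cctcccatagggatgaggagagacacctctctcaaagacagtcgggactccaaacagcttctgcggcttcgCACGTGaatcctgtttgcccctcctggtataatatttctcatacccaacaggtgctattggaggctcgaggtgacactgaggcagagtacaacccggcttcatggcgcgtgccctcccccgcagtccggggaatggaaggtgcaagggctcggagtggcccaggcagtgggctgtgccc
In both promoters the match was the palindrome CACGTG, which contains ACGTG on either strand. It began 178 bases before the start of Cth and 179 bases before that of Mpst. ACGTG was found in 16.6% of the 33469 RefSeq promoter windows of this length, TGACNNNGC in 10.1% and CACGTG in 5.59%. Of the 10 genes, 8 had 9 such windows (Hmox2 had 2): ACGTG was in 4 windows, of Cth, Mpst, Hmox2 and Nos1, and TGACNNNGC in 3, of Hmox2, Nos1 and Gucy1b1. Hmox1 and Nos2 were not matched. A match describes these letters and does not show that a factor binds.

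Around the sulfide enzymes, 20 of 21 listed genes of sulfide and thiol metabolism were measured, of which 5 rose and 5 fell. This is 50% called against 29.5% of all genes, with a median change of -0.05 against 0.06. Gss, which completes glutathione, rose by 1.03 ± 0.11 (SE, limma adjusted p = 4.58e-05), from 6.50 ± 0.16 to 7.53 ± 0.11 (SD, n = 3). Ggt1, which cleaves extracellular glutathione, rose by 0.91 and thioredoxin (Txn1) by 0.65. The aspartate aminotransferase Got1, which also feeds 3-mercaptopyruvate, rose by 0.47 and the taurine enzyme Csad by 0.42. The largest fall was that of Cdo1, cysteine dioxygenase, which removes cysteine by oxidation. Cdo1 read 8.75, 9.47 and 9.46 in the arrays labelled undifferentiated and 7.29, 6.85 and 7.21 in those labelled differentiated, without overlap. It fell by 2.11 ± 0.19 (SE, limma adjusted p = 8.73e-06). Gclm, the modifier subunit of the enzyme that starts glutathione synthesis, fell by 0.98, Suox, sulfite oxidase at the end of sulfur oxidation, by 0.83, and the methionine cycle enzymes Mtr and Mat2a by 0.66 and 0.60. Sqor, the mitochondrial enzyme that begins sulfide breakdown, differed by 0.27 (limma adjusted p = 0.177) and Ethe1, which follows it, by -0.18 (limma adjusted p = 0.395). Csad lost its call without undifferentiated replicate 1 or 3 and without differentiated replicate 1 or 3 (limma adjusted p from 0.082 to 0.111).

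For carbon monoxide, Hmox1, the haem oxygenase that is induced by haem and oxidative stress, carried the largest change of the 10 genes. It read 11.50, 11.54 and 11.71 in the arrays labelled undifferentiated and 8.07, 8.84 and 8.36 in those labelled differentiated. All values lay above the upper quartile of their arrays, and the groups were far apart, with differentiated replicate 2 the least reduced. The mean went from 11.58 ± 0.11 to 8.43 ± 0.39 (SD, n = 3), and it fell by 3.16 ± 0.17 (SE, 95% interval -3.52 to -2.79, limma adjusted p = 1.93e-07). With each array left out the change ran from -3.36 to -2.98. Only 40 of the 14506 genes, Hmox1 included, fell by as much, which is 0.276%.

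Hmox2, the constitutive haem oxygenase, read 5.44, 5.08 and 5.75 against 5.50, 5.53 and 5.45. The arrays labelled differentiated lay inside the range of the others. Its change was 0.07 (95% interval -0.29 to 0.43, limma adjusted p = 0.8), and it turned to -0.10 without undifferentiated replicate 2. The log2 difference Hmox1 minus Hmox2 within an array was 6.16 ± 0.26 in the arrays labelled undifferentiated and 2.93 ± 0.37 (SD, n = 3) in those labelled differentiated. It dropped by 3.23 (exact permutation p = 0.1, the smallest possible, adjusted p = 0.467 over 7 pairs), and this change ran from -3.42 to -3.05 with each array left out. Different probe sets read Hmox1 and Hmox2, so the level of their difference does not show how far their transcripts differed in abundance.

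Glomus cell markers moved with Hmox1. The mean log2 level of the 13 markers, summed over them and divided by their number, lay between 10.37 and 10.47 in the arrays labelled undifferentiated and between 7.65 and 8.04 in those labelled differentiated, where replicate 2 was again the highest. In that group Th, Ddc, Dbh, Chgb, Phox2a, Hand2 and Cox4i2 were highest in replicate 2. Slc18a1, Slc18a2, Scg2, Syt1 and Kcnk3 were highest in replicate 1, and Chga in replicate 3. Dbh spread the most there, with 5.79, 9.03 and 7.04. Macrophages, which recycle haem, also express Hmox1. Their 14 markers had means from 6.77 to 7.32 in the arrays labelled undifferentiated and from 6.76 to 7.52 in those labelled differentiated, ranges that overlap, with no marker at or below the lower quartile of probe sets. Of these markers 2 rose, Cd14 by 0.68 and Tyrobp by 1.24, and 2 fell, Cd74 by 2.64 and Cd163 by 1.00. Cd163, the haemoglobin scavenger receptor of macrophages, was dim, with 3.82, 4.05 and 3.83 in the arrays labelled differentiated. Its call (limma adjusted p = 0.027) was lost without undifferentiated replicate 1 or 2 and without differentiated replicate 1 or 3 (limma adjusted p from 0.0691 to 0.0852). The part of glomus cell content in the fall of Hmox1 was not tested. The genes whose values over the 6 arrays, centred on their own means, lay nearest to those of Hmox1 were the adhesion gene Igsf9, the neurosecretory precursor Vgf and the adenosine receptor Adora2a, at root mean square distances of 0.11, 0.12 and 0.12 log2 units. Their changes were -3.19, -3.24 and -3.34. The nearest to Cth were Snx24, Egr2 and Lsm11, at 0.05, 0.07 and 0.09 log2 units, which rose by 0.64, 0.61 and 0.64. Both sets were chosen by this distance, so changes near those of Hmox1 and Cth follow from the choice. Egr2 lost its call without undifferentiated replicate 2 or 3 and without differentiated replicate 3 (limma adjusted p from 0.0716 to 0.0827).

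**Figure D2:**
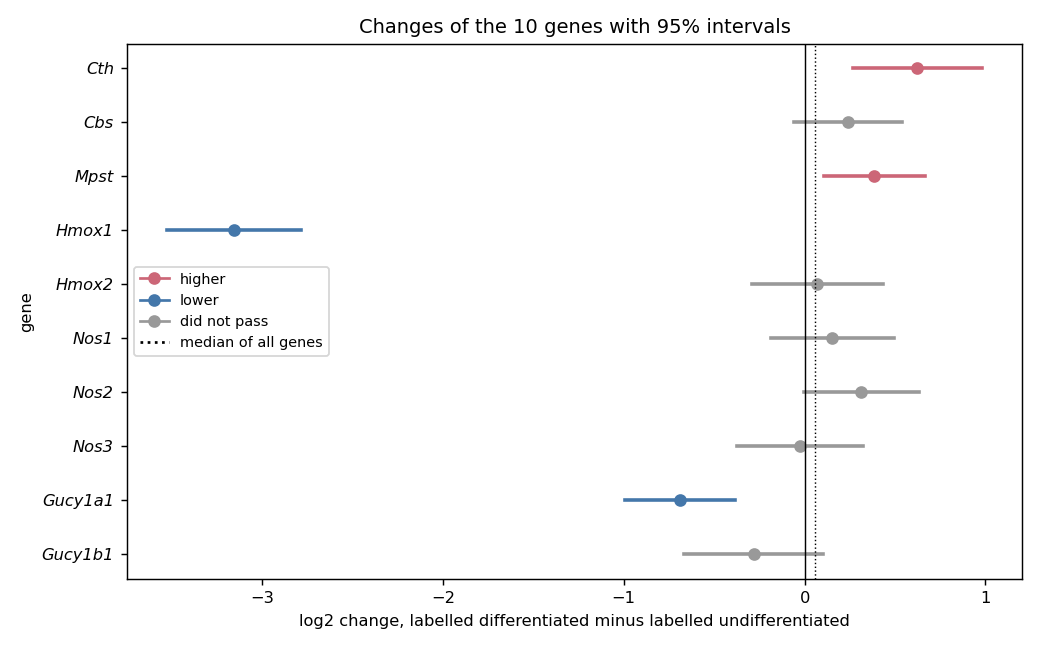
Log2 change of each of the 10 genes, labelled differentiated minus labelled undifferentiated, as a point with its 95% interval from the limma fit (red higher, blue lower, grey did not pass; the dotted line is the median of all genes, 0.06). Hmox1 lies at -3.16, apart from the other 9, which lie between -0.69 and 0.62.

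Haem enters this route through Alas1, the rate-limiting enzyme of haem synthesis, which fell with Hmox1. Alas1 read 9.62, 9.95 and 9.88 in the arrays labelled undifferentiated and 7.99, 8.22 and 8.03 in those labelled differentiated. The groups did not overlap, and it fell by 1.74 ± 0.11 (SE, limma adjusted p = 7.63e-07). Iron freed from haem is stored in ferritin, whose heavy chain Fth1 fell by 1.04 and light chain Ftl1 by 0.48. Por, the reductase that gives haem oxygenase its electrons, fell by 0.40. The biliverdin reductases, which act on the other product of the reaction, rose: Blvra by 0.62 and Blvrb by 0.64. Regulators of Hmox1 transcription also changed. Bach1, its repressor, read 7.79, 7.43 and 7.75 in the arrays labelled undifferentiated and 9.02, 8.43 and 8.61 in those labelled differentiated, a rise of 1.03 ± 0.15 (SE, limma adjusted p = 0.000375). Nfe2l2, which encodes its activator NRF2, rose by 0.60, and Keap1, which marks NRF2 for breakdown, fell by 0.66. Nqo1, a common target of NRF2, rose by 1.04 ± 0.13 (SE, limma adjusted p = 0.000134), opposite to Hmox1. Other genes counted among NRF2 targets were divided: Txn1 rose, and Gclm, Fth1 and Ftl1 fell. Gclc, Txnrd1 and Slc7a11 differed by 0.29, 0.20 and -0.30 and did not pass. The activity of NRF2 was not tested.

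In all, 22 of 24 listed genes of haem, carbon monoxide and NRF2 were measured, of which 5 rose and 5 fell (45.5% called against 29.5% of all genes, median change -0.00658 against 0.06). The later enzymes of haem synthesis among them did not pass: Alad, Uros, Urod, Cpox, Ppox and Fech differed by -0.14 to 0.26. The number that rose was 3 without differentiated replicate 3. Blvra lost its call without undifferentiated replicate 3 and differentiated replicates 2 and 3 (limma adjusted p from 0.0537 to 0.0719), Blvrb without undifferentiated replicate 2 and differentiated replicates 2 and 3 (0.052 to 0.0853), and Por without undifferentiated replicates 1 and 3 (0.0536 and 0.0601).

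**Figure D3:**
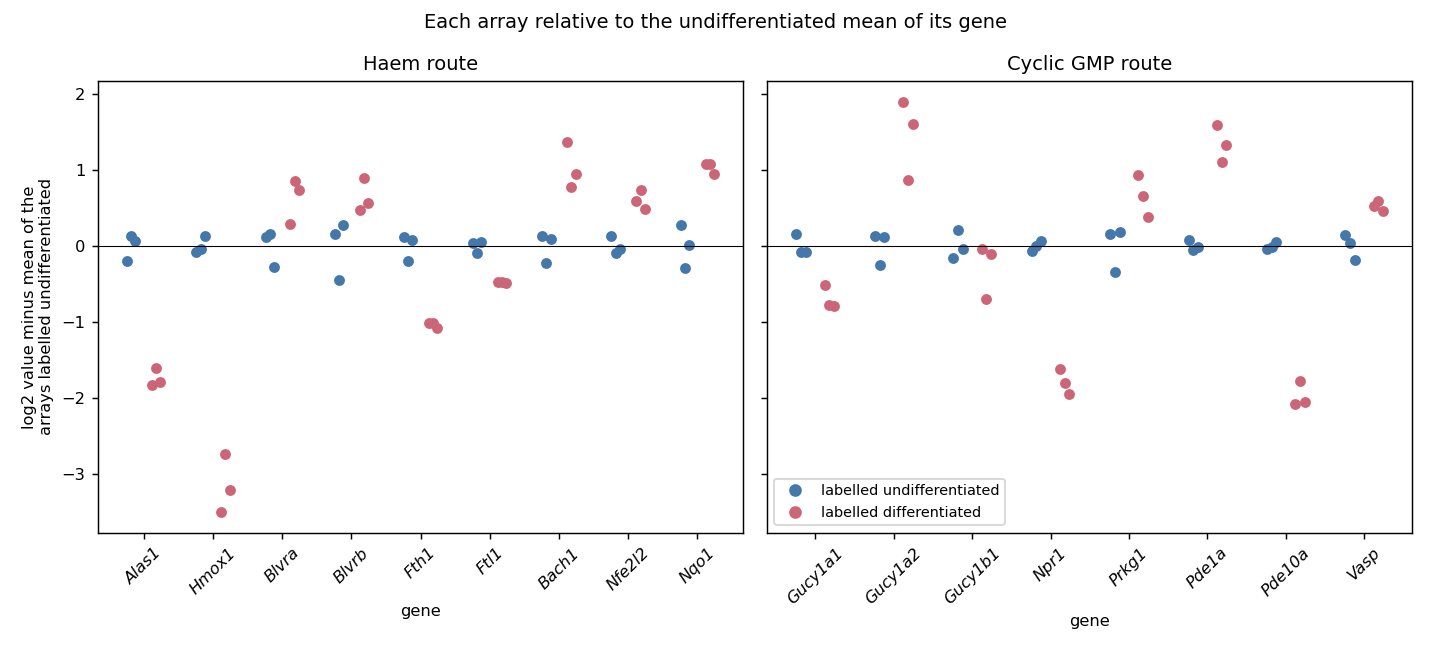
Log2 values of genes of the haem route (left) and the cyclic GMP route (right) on each array, minus the mean of the 3 arrays labelled undifferentiated for that gene (blue labelled undifferentiated, red labelled differentiated). Alas1, Hmox1, Fth1 and Ftl1 lie below 0 in the second group while Bach1, Nfe2l2 and Nqo1 lie above it, and Gucy1a1 and Gucy1a2 lie on opposite sides.

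The nitric oxide synthases showed no change that passed. Nos1, the neuronal synthase, read 4.29, 4.62 and 4.44 against 4.41, 4.80 and 4.61, with overlapping groups, and its change was 0.15 (95% interval -0.19 to 0.50, limma adjusted p = 0.524). Nos2, the inducible synthase, read 5.02, 4.71 and 4.77 against 5.18, 4.98 and 5.28. Only undifferentiated replicate 1 reached into the range of the other group, and the change of 0.31 had an interval from -0.00243 to 0.63 (limma adjusted p = 0.134). Nos3, the endothelial synthase, read 5.15, 5.30 and 4.88 against 5.20, 5.21 and 4.84. Its groups covered nearly the same range, and its change was -0.02 (95% interval -0.37 to 0.32, limma adjusted p = 0.934), or 0.07 without undifferentiated replicate 2 and 0.10 without differentiated replicate 3. The intervals leave room for changes of up to 0.63 on the log2 scale in Nos2. The changes of the 3 synthases differed from each other by -0.16 (Nos1 minus Nos2), 0.18 (Nos1 minus Nos3) and 0.34 (Nos2 minus Nos3), with exact permutation p of 0.6, 0.4 and 0.4 (adjusted p of 0.6, 0.56 and 0.56 over 7 pairs).

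Of 25 listed genes that supply or regulate the synthases, 22 were measured, of which 5 rose and 7 fell. This is 54.5% called against 29.5% of all genes, with a median change of 0.15 against 0.06. Tetrahydrobiopterin, the cofactor that nitric oxide synthases share with tyrosine hydroxylase, is made from GTP by Gch1 and recycled by Qdpr. Gch1 read 8.37, 8.57 and 8.74 in the arrays labelled undifferentiated and 5.13, 5.48 and 5.38 in those labelled differentiated, and it fell by 3.23 ± 0.13 (SE, limma adjusted p = 4.93e-08). Qdpr read 8.85, 8.78 and 8.85 against 6.86, 7.10 and 6.79 and fell by 1.91. Pts, the second enzyme of cofactor synthesis, fell by 0.48, Spr, the last, differed by 0.03 and did not pass, and Gchfr, the feedback regulator of Gch1, rose by 0.51. The glomus cell markers moved with Gch1 and Qdpr as with Hmox1; their part in these falls was not tested.

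Some genes of arginine handling also moved. Slc7a2, a transporter of arginine, fell by 1.21 ± 0.13 (SE, limma adjusted p = 3.21e-05), and the arginases Arg1 and Arg2, which compete for arginine, each fell by 0.86. Another arginine transporter, Slc7a1, differed by 0.17 and did not pass (limma adjusted p = 0.327). Ass1 and Asl, which make arginine, differed by -0.44 and 0.29 and did not pass either (limma adjusted p = 0.0683 and 0.0987). Arg2 was dim, with 3.10, 3.35 and 2.79 in the arrays labelled differentiated, each below its array's lower quartile, so the size of its fall is uncertain. Ddah1 and Ddah2, which break down the natural synthase inhibitor asymmetric dimethylarginine, rose by 0.64 and 0.62, and Prmt1, which forms its precursor in proteins, by 0.36. Cav1, the caveolar protein that holds Nos3 inactive, read 6.22, 6.10 and 6.11 in the arrays labelled undifferentiated and 8.39, 8.56 and 7.92 in those labelled differentiated. It rose by 2.14 ± 0.15 (SE, limma adjusted p = 1.29e-06), without overlap. Dlg4, a scaffold that binds Nos1 at synapses, fell by 0.37.

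Some of these smaller calls rested on single arrays. The number of supply genes that rose was 3 without undifferentiated replicate 1 or differentiated replicate 1. Gchfr lost its call without undifferentiated replicates 1 and 3 and differentiated replicate 3 (limma adjusted p from 0.0509 to 0.0656), Pts without undifferentiated replicates 1 and 3 and differentiated replicates 1 and 3 (0.0569 to 0.0919), and Dlg4 without undifferentiated replicate 1 and differentiated replicate 3 (0.0596 and 0.0629). Ddah1 lost its call without differentiated replicate 1 (0.0837). Prmt1 lost its call without undifferentiated replicates 1 and 2 and differentiated replicates 1 and 2 (0.07 to 0.117), with median centring (0.0682), without the variance trend (0.0666) and with array weights (0.0506).

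The receptor for nitric oxide changed in its alpha chains. Gucy1a1, the alpha-1 chain of soluble guanylate cyclase, read 5.74, 5.51 and 5.51 in the arrays labelled undifferentiated and 5.08, 4.81 and 4.80 in those labelled differentiated. The groups did not overlap, and it fell by 0.69 ± 0.14 (SE, limma adjusted p = 0.00269), with a range of -0.78 to -0.61 when each array was left out. Gucy1b1, the beta-1 chain, which carries the haem that binds nitric oxide, read 6.48, 6.85 and 6.60 against 6.60, 5.94 and 6.54. Only differentiated replicate 2 lay clearly below the rest, and the change of -0.28 did not pass (95% interval -0.67 to 0.10, limma adjusted p = 0.276); it was -0.07 without that array. The changes of the chains differed by -0.41 (exact permutation p = 0.2, adjusted p = 0.467 over 7 pairs). The 2 genes are neighbours on the minus strand of chromosome 2 in GRCr8, with no other protein-coding gene between them.

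Gucy1a2, the alpha-2 chain, which can replace alpha-1 beside the same beta chain, moved the other way. It read 4.94, 4.55 and 4.93 in the arrays labelled undifferentiated and 6.71, 5.68 and 6.42 in those labelled differentiated. It rose by 1.46 ± 0.23 (SE, limma adjusted p = 0.0006), with no overlap. The log2 difference Gucy1a1 minus Gucy1a2 was 0.78 ± 0.19 in the first group and -1.37 ± 0.44 (SD, n = 3) in the second. It dropped by 2.15 (exact permutation p = 0.1, the smallest possible), and this pair was chosen after its values were seen. Different probe sets read the 2 genes, so the sign of this difference does not show which transcript was more abundant. The promoters of the alpha chains are shown because the genes moved in opposite directions. They lie at chr2:169779624-169779873, minus strand and chr8:8784962-8785211, plus strand in GRCr8, again from RefSeq as the 250 bases before the start with the same motifs in capitals.
Gucy1a1: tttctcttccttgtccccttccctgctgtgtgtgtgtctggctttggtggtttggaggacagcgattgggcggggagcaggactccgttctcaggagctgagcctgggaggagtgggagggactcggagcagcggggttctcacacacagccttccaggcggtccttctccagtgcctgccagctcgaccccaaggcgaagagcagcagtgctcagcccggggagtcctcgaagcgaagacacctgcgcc
Gucy1a2: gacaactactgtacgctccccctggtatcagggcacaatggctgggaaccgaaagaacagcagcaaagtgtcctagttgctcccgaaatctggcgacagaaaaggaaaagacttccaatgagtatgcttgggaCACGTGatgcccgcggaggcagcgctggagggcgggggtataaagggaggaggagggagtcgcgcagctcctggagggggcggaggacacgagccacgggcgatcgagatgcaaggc
Gucy1a2 held the palindrome CACGTG, beginning 117 bases before its start, and Gucy1a1 held neither motif in this window.

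Of 26 measured genes of cyclic GMP signalling, 4 rose and 6 fell (38.5% called against 29.5% of all genes, median change 0.10 against 0.06). Pde1a, a calcium-activated phosphodiesterase that degrades cyclic nucleotides, read 5.50, 5.38 and 5.41 in the arrays labelled undifferentiated and 7.02, 6.54 and 6.76 in those labelled differentiated, a rise of 1.34 ± 0.14 (SE, limma adjusted p = 2.48e-05). Pde10a, another phosphodiesterase, read 8.27, 8.30 and 8.36 against 6.23, 6.53 and 6.26, and it fell by 1.97 ± 0.11 (SE, limma adjusted p = 2.62e-07). Pde1b and Pde2a each fell by 0.49, while Pde5a, the target of sildenafil, differed by 0.44 (limma adjusted p = 0.113). Npr1, the membrane receptor that makes cyclic GMP in response to atrial natriuretic peptide, read 7.39, 7.46 and 7.52 against 5.84, 5.65 and 5.51. It fell by 1.79 ± 0.12 (SE, limma adjusted p = 7.5e-07). The cyclic GMP-dependent kinase Prkg1 rose by 0.66 and its substrate Vasp by 0.52, whereas the nucleotide exporter Abcc5 fell by 0.46 and the cyclic nucleotide-gated channel subunit Cnga3 by 0.78. Cnga3 was dim, with 4.33, 4.01 and 3.55 in the arrays labelled differentiated, so the size of its fall is uncertain. Prkg1 lost its call without undifferentiated replicate 2 and without differentiated replicate 1 (limma adjusted p = 0.0641 and 0.0698), and Pde2a without undifferentiated replicates 1 and 3 and differentiated replicates 1 and 3 (0.0859 to 0.13).

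**Figure D4:**
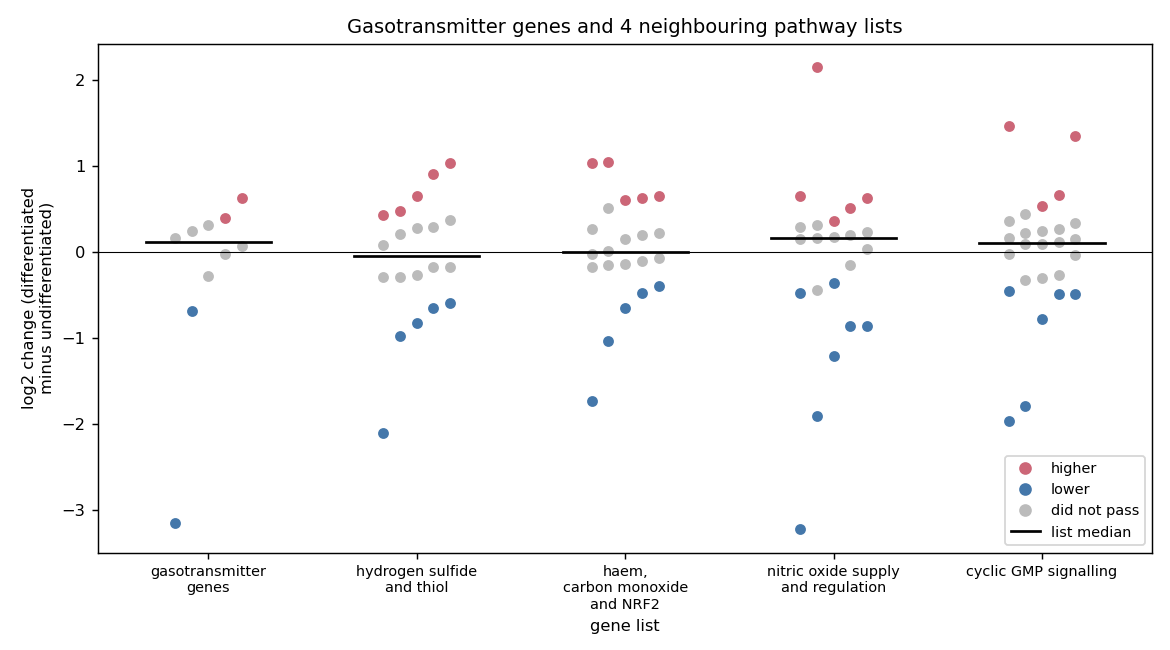
Log2 change of each measured gene, labelled differentiated minus labelled undifferentiated, in the 10 gasotransmitter genes and in the 4 pathway lists around them (red higher, blue lower, grey did not pass; the black line is the list median). Every list holds genes that rose and genes that fell, and the lowest points are Hmox1 at -3.16 and Gch1 at -3.23.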

How the data were processed

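Total RNA from 6 samples was labelled from 100 ng per the labels' protocols and read on Affymetrix arrays. The authors deposited log2 values for 29214 probe sets, a scale inferred here from their range. Background correction, normalization and summarization were not given in the sources used here. Values were used as deposited. Gene names came from the platform's annotation (15310 with 1 gene symbol, 323 with several, 13581 not listed), 99.8% of the single-gene ones were matched by gene ID to RefSeq's GRCr8 gene table, and the brightest probe set by mean stood for its gene. All 6 arrays entered 1 limma 3.58.1 fit in R 4.3.3 (lmFit, eBayes with trend, no block, two-sided), with Benjamini-Hochberg adjustment over 14506 genes at 0.05. The script was tested on simulated data. Differences between the changes of 2 genes were tested by exact two-sided permutation over arrays. The naming rule took all 10 genes, the 3 list genes of smallest p in each direction, the 2 markers of smallest p per cell type and the 3 genes nearest to Cth and to Hmox1; all other list genes and markers named were added with their values known. The genes and lists were chosen with earlier results of these data known. Alternatives were quantile normalization, a block on the replicate number, array weights, eBayes without trend, median centring, averaged probe sets, a filter on dim genes and leaving out each array. Figures were drawn with matplotlib 3.10.9.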

Additional observations from a re-analysis of the deposited data

How the results depend on the processing

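The limits are the 3 arrays a group, the unknown background of dim genes and the joint change of mitogens and oxygen. Over 13 alternatives the falls of Hmox1 and Gucy1a1 kept their direction and their call. Of 790 alternative values for 61 other named genes, 748 kept both, 42 lost the call and 0 turned. The 61 were the genes of the naming rule, all called pathway genes, Th and Cd163. Other named pathway genes and markers, such as Sqor and S100b, were not run through the alternatives. Cbs, Arg2, Cnga3 and Cd163 were not tested where dim genes were left out. With median centring the change of Mpst was 0.36 (limma adjusted p = 0.0547) and the number of gasotransmitter genes that rose was 1. Centring shifts every gene of an array by the same amount, and the median change of all genes went from 0.06 to 0.03. When each array was left out, the change ran from 0.50 to 0.75 for Cth, from 0.28 to 0.45 for Mpst, from -0.10 to 0.24 for Hmox2 and from -0.14 to 0.10 for Nos3. The number of gasotransmitter genes that rose ran from 0 to 2, that of haem, carbon monoxide and NRF2 genes from 3 to 5 and that of nitric oxide supply genes from 3 to 5, with fewer arrays in each fit. The difference between the changes of Gucy1a1 and Gucy1a2 ran from -2.40 to -2.02. Deviations of same-numbered arrays from their group means correlated at 0.12, 0.12 and -0.00376 across genes. Undifferentiated replicate 3 correlated best with differentiated replicate 1, at 0.06. With 3 arrays a group these values cannot settle whether same-numbered arrays share a culture or a rat. With the replicate block 4430 genes were called against 4286, and no gasotransmitter gene changed its call.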
